A study of Mus musculus with 8 samples.

Results

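The genes described here carry glucose across the kidney tubule and make or consume it there. There were 9 of them: the sodium-coupled glucose transporters Slc5a1 and Slc5a2, the facilitative transporters Slc2a1 and Slc2a2, the gluconeogenic enzymes G6pc, Pck1 and Fbp1, and the hexokinases Hk1 and Hk2. They were chosen by name, and the probes of each were found through the RefSeq transcript that the array lists for the probe. Of the 9 genes, 8 had a named probe and all 8 passed the filter on dim probes, among 13573 named genes and 19593 genes and unnamed transcripts tested in all. No probe was matched to Pck1, which is not analysed here. The transcripts listed for the probes used are NM_019810 (Slc5a1), NM_133254 (Slc5a2), NM_011400 (Slc2a1), NM_031197 (Slc2a2), NM_008061 (G6pc), NM_019395 (Fbp1), NM_001146100 (Hk1) and NM_013820 (Hk2). Whole kidneys of 8 mice aged 8 weeks gave the RNA, each on a single-colour array of its own. The NEKO and the control group had 4 mice each, 2 females and 2 males. NEKO mice had the genotype Keap1-/-::Nrf2Flox/Flox::K5-Cre, so that Keap1 was missing from the whole body and Nrf2 could be lost only where the Keratin5 promoter drives Cre, which is in squamous epithelium. The controls were of genotype K1 (Keap1+/-::Nrf2Flox/Flox), which was 1 female, or K1Cre (Keap1+/-::Nrf2Flox/Flox::K5-Cre), which were 3 mice. All 8 mice therefore carried the floxed Nrf2 alleles, no control had both copies of Keap1, and the strain background was a mixture of 129Sv/J and C57BL/6J. The comparison asks which kidney transcripts differ when Keap1, the adaptor through which Nrf2 is marked for degradation, is absent.

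Glucose filtered at the glomerulus is taken back in the proximal tubule. SGLT2, the product of Slc5a2, recovers most of it in the early part, and SGLT1, the product of Slc5a1, recovers the remainder further along. GLUT2 (Slc2a2) and GLUT1 (Slc2a1) let the sugar leave the cell into the blood. The same proximal cells synthesise glucose from lactate, glutamine and glycerol, and Pck1, Fbp1 and G6pc catalyse steps of that route which glycolysis does not share. Hexokinases run the opposite reaction to G6pc, trapping glucose in the cell as its phosphate, and in the kidney they are known mainly from segments beyond the proximal tubule.

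Levels are on the log2 scale, with each array's 75th percentile (over its probes other than controls) set to 0, so a level of 0 equals that percentile and a difference of 1 is a doubling. The share of probes well above background ran from 61.8% to 65.7% in control mice and from 61.9% to 64.7% in NEKO mice, with 0 saturated spots. Keap1 lay between 1.77 and 1.92 in control mice and between 0.06 and 0.45 in NEKO mice, apart in all 8 mice as labelled. Nqo1, a gene induced by Nrf2, lay between 1.24 and 2.46 in control mice and between 3.89 and 5.45 in NEKO mice. The proximal tubule markers Lrp2, Cubn and Slc34a1 were well above background on all 8 arrays. One slide carried the females and the other the males, so a difference between the sexes cannot be told apart from one between slides. Each slide carried 2 mice of either genotype, and the term for sex in the model takes up a shift between slides. In whole kidney RNA, fewer cells of a type and less RNA per cell cannot be told apart.

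Of the 8 measured genes, 0 were called between NEKO and control kidneys at an adjusted p under 0.05 with limma, where the share over everything tested was 0.225%. At an unadjusted p under 0.05, 1 of the 8 was higher (Hk2) and 1 lower (Slc5a2), against 7.39% and 10.6% of everything tested. Hk2 and Slc5a2 were also the genes whose groups did not overlap, 1 in each direction, where 3.89% of everything tested was separated upward and 5.38% downward. The other 6 genes overlapped between the genotypes, with log2 differences from -0.23 to 0.31. The median difference of the 8 was 0.04, and that over all features tested was -0.03.

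**Figure D1:**
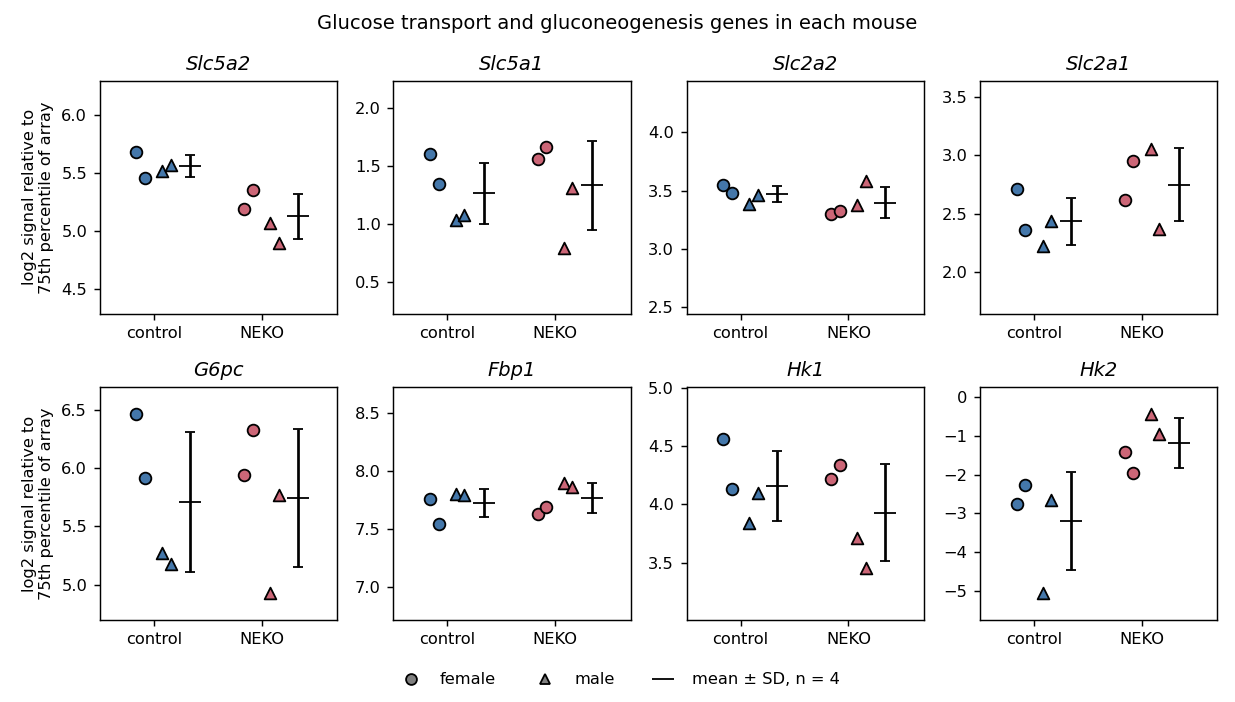
Level of the 8 measured genes in each mouse, as log2 signal with each array's 75th percentile at 0, with circles for females, triangles for males and bars for mean ± SD of each group; every panel has its own axis. The 4 NEKO mice lie below the 4 control mice for Slc5a2 and above them for Hk2, and in Slc5a1, G6pc and Hk1 the males lie below the females.

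Slc5a2, which encodes SGLT2, was lower in each NEKO kidney than in each control kidney. Its level was 5.68 and 5.46 in the control females (replicates 1 and 8), 5.52 and 5.57 in the control males (replicates 4 and 7), 5.19 and 5.36 in the NEKO females (replicates 2 and 3), and 5.07 and 4.90 in the NEKO males (replicates 5 and 6). The groups did not overlap, and the highest NEKO value was 5.36 against a lowest control value of 5.46. The means were 5.13 ± 0.19 (SD, n = 4) and 5.56 ± 0.10 (SD, n = 4). The log2 difference was -0.43 (standard error 0.10, 95% confidence interval -0.66 to -0.20), which puts the NEKO level at 74.2% of that of controls. Its adjusted p was 0.12 from limma, short of the threshold of 0.05, and it ranged from 0.082 to 0.37 over the alternative settings. By the exact two-sided permutation test p was 0.029, the smallest that 4 mice against 4 can give. That test takes no account of sex or slide, and every gene whose groups do not overlap gets this value. The difference was -0.30 within the females and -0.56 within the males, and the test for unlike effects in the sexes gave an adjusted p of 0.70 from limma.

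Markers of the proximal tubule, the segment of SGLT2, had differences on both sides of 0. Of 12 markers 11 were tested, with 7 differences above 0 and 4 below, a median of 0.03, and a summed level (on the linear scale, in units of the 75th percentile of the array) of 745 to 967 in control mice and 784 to 992 in NEKO mice. The groups did not overlap for 3 of the 11 (27.3%, against 9.27% of everything tested), which are named here after their values were seen. Slc34a3, a sodium-phosphate cotransporter of the brush border, lay lower in NEKO mice (-0.68, adjusted p = 0.075 from limma). Slc13a3, a dicarboxylate transporter, and Slc22a8, an organic anion transporter, lay higher, by 0.97 and 0.82 (adjusted p = 0.12 and 0.20 from limma). Pdzk1ip1, which encodes the accessory protein of SGLT2 also called MAP17, had a difference of -0.21 with overlapping groups (adjusted p = 0.35 from limma). The part of these genes in the value of Slc5a2 was not tested.

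Slc5a1, which encodes SGLT1, did not separate the genotypes. Its level was 1.60 and 1.34 in the control females, 1.03 and 1.07 in the control males, 1.56 and 1.66 in the NEKO females, and 0.80 and 1.31 in the NEKO males. Mice of both genotypes lay at the top and at the bottom of this range. The log2 difference was 0.07 (standard error 0.13, adjusted p = 0.80 from limma), and its 95% confidence interval ran from 85.1% to 129% of the control level. A second probe of Slc5a1 had a difference of -0.05 (standard error 0.11). SGLT1 belongs to the last, straight segment of the proximal tubule. The 6 markers of that segment had differences from -2.19 to -0.11 with a median of -0.52. Of these, 0 passed an unadjusted p under 0.05 in limma, against 18% of everything tested. The interaction test of limma gave these markers adjusted p from 0.15 to 0.84, so unlike effects in the sexes were not shown. Within the females the differences were -2.05 (Slc7a13), 1.56 (Slc22a7), 0.57 (Slc22a19), 1.32 (Cyp7b1), 0.36 (Atp11a) and 0.24 (Aadat). Within the males they were -0.88, -5.93, -1.66, -2.10, -0.58 and -1.23, in the same order. The summed level of the 6 markers was 95.3 to 244 in control mice and 60.7 to 186 in NEKO mice, and its part in the level of Slc5a1 was not tested.

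The facilitative transporters that pass glucose on to the blood also overlapped between the genotypes. Slc2a2, which encodes GLUT2, was at 3.55 and 3.48 in the control females, 3.39 and 3.46 in the control males, 3.30 and 3.32 in the NEKO females, and 3.38 and 3.59 in the NEKO males. The log2 difference was -0.07 (standard error 0.09, adjusted p = 0.68 from limma), with an interval of 82.2% to 110% of the control level. Its second probe went the other way, with a difference of 0.21 (standard error 0.17), so the probes disagreed in direction, and the 2 values had unadjusted p of 0.44 and 0.26 in limma.

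Slc2a1, which encodes GLUT1, the glucose carrier of many dividing cells and of the blood-brain barrier, was at 2.71 and 2.36 in the control females, 2.22 and 2.44 in the control males, 2.62 and 2.95 in the NEKO females, and 3.05 and 2.37 in the NEKO males. The highest values belonged to NEKO replicates 3 and 5, but NEKO replicates 2 and 6 lay within the control range. The difference of 0.31 (standard error 0.18, adjusted p = 0.38 from limma) had an interval of 93.3% to 166% of the control level, and it was 0.16 without NEKO replicate 5. Markers of the red cell lineage were looked at beside it. Of the 6 listed for that lineage only Hba-a1 and Alas2 passed the filter, with differences of 0.67 and 1.52 and overlapping groups. Their summed level was 27.0 to 158 in control mice and 66.2 to 309 in NEKO mice. It was highest in NEKO replicate 5, followed by control replicates 7 (158) and 4 (95.2), where Slc2a1 was at 2.44 and 2.22. The part of these markers in the level of Slc2a1 was not tested.

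**Figure D2:**
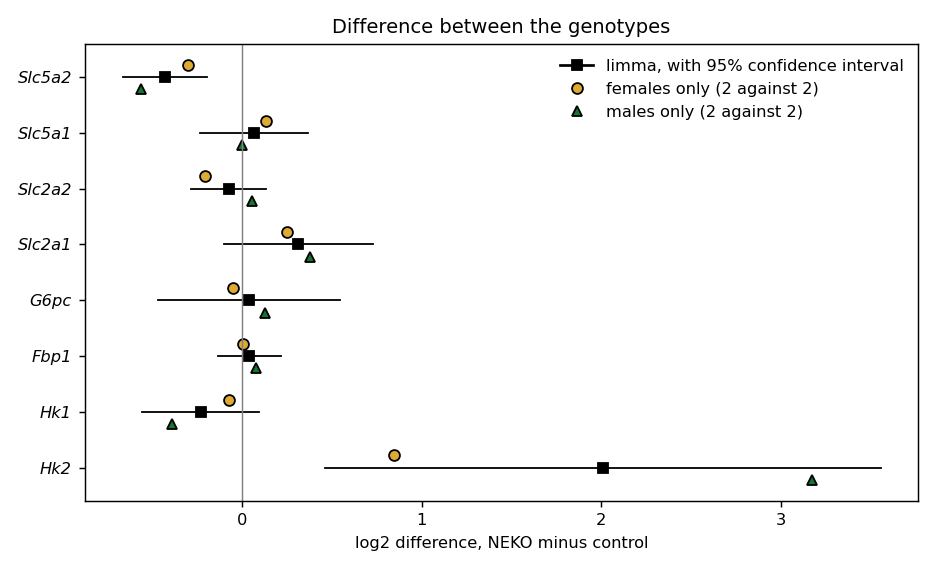
Log2 difference of NEKO minus control for the 8 measured genes, from limma with its 95% confidence interval (squares), and as the plain difference of means within the females (circles) and within the males (triangles), 2 mice against 2 in each. Slc5a2 (-0.43) and Hk2 (2.01) have intervals that leave out 0, and neither was called after adjustment.

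The 2 gluconeogenic enzymes with a probe had nearly equal levels in both genotypes. G6pc, the catalytic subunit that frees glucose from its phosphate in the last step of the pathway, was at 6.46 and 5.92 in the control females, 5.27 and 5.18 in the control males, 5.95 and 6.33 in the NEKO females, and 4.93 and 5.77 in the NEKO males. The spread within each genotype, 5.71 ± 0.60 (SD, n = 4) in control and 5.74 ± 0.59 (SD, n = 4) in NEKO mice, exceeded the difference between them. That difference was 0.04 (standard error 0.21, adjusted p = 0.94 from limma), with an interval of 72.3% to 146% of the control level. Fbp1, the bisphosphatase that bypasses phosphofructokinase, had the smallest standard error of the 8 genes. Its level was 7.76 and 7.55 in the control females, 7.80 and 7.79 in the control males, 7.63 and 7.69 in the NEKO females, and 7.89 and 7.86 in the NEKO males. Its difference of 0.04 (standard error 0.07, adjusted p = 0.79 from limma) had the narrowest interval of the 8, from 91.1% to 116% of the control level.

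Hk1, the hexokinase found in most tissues, was at 4.57 and 4.13 in the control females, 3.84 and 4.10 in the control males, 4.22 and 4.34 in the NEKO females, and 3.71 and 3.45 in the NEKO males. The NEKO males had the lowest values, but the genotypes overlapped, with a difference of -0.23 (standard error 0.14, adjusted p = 0.41 from limma) and an interval of -0.56 to 0.10. The size of this difference moved with single mice: it was -0.14 without NEKO replicate 6, -0.15 without control replicate 7 and -0.35 without control replicate 8. With the mean of the kept probes it was -0.13. The array held 6 probes of Hk1, of which 5 passed the filter. The probe used here is listed for another transcript (NM_001146100) than the other 5 (NM_010438), and the differences of the 4 other kept probes ran from -0.22 to 0.01.

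Hk2, the inducible hexokinase known from muscle and from cells with high glycolytic flux, had the largest difference of the 8 genes. It was at -2.77 and -2.28 in the control females, -5.05 and -2.66 in the control males, -1.40 and -1.96 in the NEKO females, and -0.43 and -0.95 in the NEKO males. The groups did not overlap, the closest values being -1.96 in NEKO replicate 3 and -2.28 in control replicate 8. The signal of control replicate 4 was not well above background, while the probe was measured on the other 7 arrays. The means were -1.18 ± 0.65 (SD, n = 4) in NEKO and -3.19 ± 1.26 (SD, n = 4) in control mice, a log2 difference of 2.01 (standard error 0.65, 95% confidence interval 0.46 to 3.55), or 4.02-fold. The adjusted p was 0.20 from limma, and the exact two-sided permutation test gave 0.029, the smallest possible, which follows from groups that do not overlap. Without control replicate 4 the difference was 1.30 (standard error 0.31, adjusted p = 0.23 from limma), and under normexp background correction 1.45 (adjusted p = 0.12 from limma). It was 0.84 within the females and 3.17 within the males, where control replicate 4 is 1 of the 2 control mice, and the test for unlike effects in the sexes gave an adjusted p of 0.51 from limma.

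Markers of macrophages, cells that express this hexokinase when activated, were measured beside it. Of 10 markers 9 were tested, with 6 differences above 0 and 3 below, a median of 0.13, and a summed level of 4.99 to 6.31 in control mice and 4.67 to 7.61 in NEKO mice. In limma 1 of the 9 (11.1%) passed an unadjusted p under 0.05, against 18% of everything tested. It was Lyz2, with a difference of 1.38 (adjusted p = 0.27 from limma). Of the tubule segments beyond the proximal one, the thick ascending limb had a summed marker level of 390 to 453 in control and 235 to 399 in NEKO mice, principal cells 59.7 to 73.3 and 43.7 to 65.8, and intercalated cells 36.7 to 49.6 and 6.86 to 24.8. All 6 intercalated cell markers had differences below 0, with a median of -0.90, and 4 of them passed an unadjusted p under 0.05 in limma, where 10.6% of everything tested was lower at that threshold. The part of these cells in the levels of Hk1 and Hk2 was not tested.

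Because the mice differ in the activity of Nrf2, the 250 bases before the start sites of the genes were read from the RefSeq promoter sequences of GRCm38.p6 and searched on both strands for the core of the antioxidant response element to which Nrf2 binds with small Maf proteins (TGACNNNGC). A half-site of HNF1 (GTTAAT), a factor of proximal tubule and liver genes, was also searched; no match of one motif overlapped the other. The table held 9 windows for 8 of the 9 genes, with 2 for Hk1 and none for Slc5a2. The core of the response element was found in 3 of the 9 windows, those of G6pc, Fbp1 and the second start site of Hk1, and in 10.2% of all 32851 windows. The half-site was found in 2 of the 9, those of G6pc and Pck1, and in 6.43% of all windows. The 3 windows with a match to the core and that of Hk2, the gene with the largest difference, are shown 5′ to 3′ on the strand of the gene, with matches in capitals.
G6pc, chr11:101367466-101367715, plus strand: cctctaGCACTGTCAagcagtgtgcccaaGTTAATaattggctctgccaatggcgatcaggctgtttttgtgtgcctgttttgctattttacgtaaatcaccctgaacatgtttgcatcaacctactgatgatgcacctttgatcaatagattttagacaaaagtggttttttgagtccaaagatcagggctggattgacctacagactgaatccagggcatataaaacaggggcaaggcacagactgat
Fbp1, chr13:62888283-62888532, minus strand: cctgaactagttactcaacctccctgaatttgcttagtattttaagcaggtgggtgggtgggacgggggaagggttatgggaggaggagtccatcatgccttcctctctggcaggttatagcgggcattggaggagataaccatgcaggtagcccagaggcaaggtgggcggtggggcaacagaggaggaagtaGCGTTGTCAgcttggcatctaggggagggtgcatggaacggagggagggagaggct
Hk1, chr10:62340422-62340671, minus strand: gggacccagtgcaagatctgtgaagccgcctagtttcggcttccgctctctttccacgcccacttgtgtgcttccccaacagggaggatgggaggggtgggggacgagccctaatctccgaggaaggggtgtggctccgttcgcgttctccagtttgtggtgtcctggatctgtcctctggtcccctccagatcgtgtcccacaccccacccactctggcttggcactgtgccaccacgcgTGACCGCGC
Hk2, chr6:82774455-82774704, minus strand: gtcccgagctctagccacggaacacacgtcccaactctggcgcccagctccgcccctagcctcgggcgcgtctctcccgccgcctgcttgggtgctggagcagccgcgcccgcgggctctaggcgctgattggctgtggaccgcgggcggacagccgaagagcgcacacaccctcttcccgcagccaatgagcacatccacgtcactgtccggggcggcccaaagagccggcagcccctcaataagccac
In the G6pc window the first capitals are the core, read on the minus strand and 244 bases before the start site, and the second are the half-site. In Fbp1 the core lies on the minus strand 56 bases before the start site, and in Hk1 on the plus strand 9 bases before it. G6pc, Fbp1 and Hk1, whose windows hold the core, had differences of 0.04, 0.04 and -0.23 between the genotypes. Hk2, at 2.01, had no match in this window, which says only that these letters are not in it. A match is a description of the sequence and not a binding site.

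The genes were also compared between females and males, a contrast that coincides with the slide. In 4 of the 8 genes the 4 females did not overlap with the 4 males, against 12% of everything tested, and 3 of them were higher in females, against 5.26%. In limma 4 of the 8 passed an unadjusted p under 0.05, against 21.2%. None of the 8 was called after adjustment, where the share over everything tested was 0.786%. G6pc was at 6.16 ± 0.28 (SD, n = 4) in females and 5.29 ± 0.35 (SD, n = 4) in males, a difference of -0.88 for males minus females (standard error 0.21, adjusted p = 0.091 from limma), or 1.84-fold higher in females. Slc5a1 was 1.40-fold higher in females (difference -0.49, standard error 0.13, adjusted p = 0.10 from limma). Hk1 was 1.45-fold higher in females (difference -0.54, standard error 0.14, adjusted p = 0.10 from limma). Fbp1 was the gene that lay the other way, 0.18 higher in males (standard error 0.07, adjusted p = 0.23 from limma). For G6pc, Slc5a1 and Hk1 every female of either genotype exceeded every male.

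Probes of one gene went the same way in this contrast for Slc5a1, at -0.49 and -0.47, and for Hk1, where the 5 kept probes had differences from -0.82 to -0.15. For Slc2a2 they did not, at 0.04 for the probe used here and -0.37 for the other. The effect of genotype was not shown to differ between the sexes in any of the 8 genes: 0 were called by limma's interaction test and 0 had an unadjusted p under 0.05, against 0.0153% and 10.5% of everything tested.

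**Figure D3:**
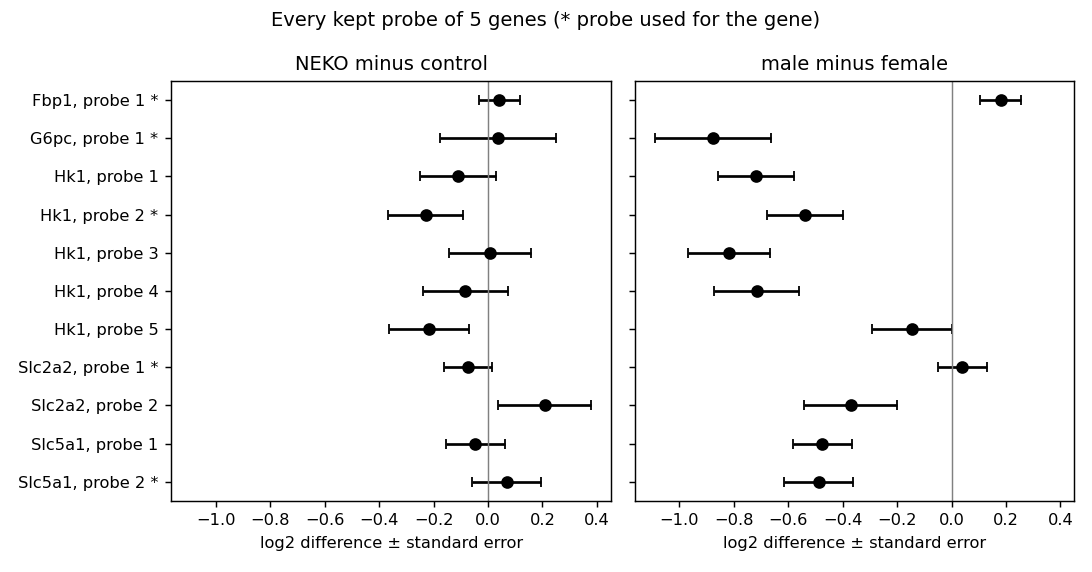
Log2 difference ± standard error of every kept probe of 5 of the genes, as NEKO minus control (left) and male minus female (right), with an asterisk at the probe used for the gene. The differences between genotypes lie from -0.23 to 0.21, and those between the sexes reach -0.88 in G6pc.

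The other genes of glucose handling were taken from 5 lists with 89 genes, of which 84 were tested. In limma 0 of the 84 were called, and at an unadjusted p under 0.05 there were 8 higher and 13 lower, or 25% of the 84 against 18% of everything tested. The 8 were Slc2a10, Glud1, Slc38a3, Pfkfb1, Pkm, Cebpa, Insr and Pparg, and the 13 were Slc2a12, Slc2a13, Slc5a3, Pck2, Fbp2, Slc16a1, Slc16a7, Got2, Hkdc1, Pfkm, Pfkp, Aldoc and Ppargc1a. Some of these differences lay mainly in the males. Within females and males they were 0.03 and -1.51 for Slc2a13, and -0.08 and -1.19 for Slc5a3. For Pfkp they were -0.01 and -0.75, and for Slc2a10 0.07 and 0.93. The interaction test of limma gave these genes adjusted p from 0.073 to 0.20. Others were alike in females and males, such as Got2 (-0.30 and -0.30) and Pck2 (-0.34 and -0.23). The genotypes were separated without overlap in 6 genes, 1 upward and 5 downward, which is 7.14% of the 84 against 9.27% of everything tested.

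**Figure D4:**
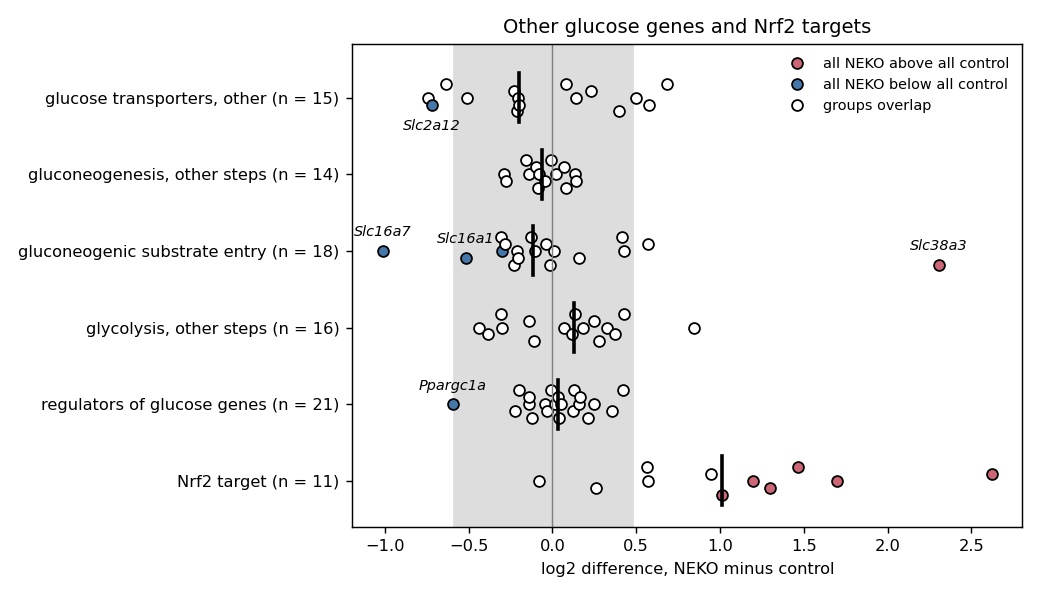
Log2 difference of NEKO minus control for the tested genes of 5 lists of glucose handling and of the Nrf2 target list, 1 point per gene, with the list median as a vertical bar the range from the 5th to the 95th percentile of everything tested in grey, and filled points where the groups do not overlap (red higher, blue lower in NEKO). The glucose lists have medians from -0.20 to 0.13, the Nrf2 targets 1.01, and among the glucose genes Slc38a3 (2.30) and Slc16a7 (-1.01) lie farthest from 0 in each direction.

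Among 15 other genes tested from the list of transporters, which also holds the accessory gene Pdzk1ip1, 7 differences were above 0 and 8 below, with a median of -0.20. Slc2a12, which encodes the facilitative transporter GLUT12, was the only one of the 15 whose groups did not overlap (6.67%, against 9.27% of everything tested). It was at 0.17 and -0.26 in the control females, -0.07 and 0.04 in the control males, -0.39 and -0.67 in the NEKO females, and -0.87 and -1.06 in the NEKO males. The NEKO males had the lowest values, and the difference was -0.72 (standard error 0.15, adjusted p = 0.10 from limma). Slc5a10 and Slc5a11, kidney members of the SGLT family, had differences of 0.08 and 0.14 with overlapping groups.

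The reversible steps of gluconeogenesis and its remaining enzymes lay close to 0, with all 14 tested, differences from -0.29 to 0.14 and a median of -0.06. Pcx, which carboxylates pyruvate at the entry of the route, had a difference of 0.13, and Slc37a4, which carries the substrate of G6pc into the endoplasmic reticulum, one of -0.01. Pck2, the mitochondrial counterpart of Pck1, had a difference of -0.29 (standard error 0.11, adjusted p = 0.24 from limma) with overlapping groups. The 16 tested glycolysis genes had a median of 0.13 and differences from -0.44 to 0.84. Groups separated in 0 of them, against 9.27% of everything tested.

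The widest differences were among the carriers that bring in substrates. Of 18 such genes, 1 lay higher in every NEKO mouse and 3 lower, together 22.2% against 9.27% of everything tested. Slc38a3, which encodes the glutamine transporter SNAT3, was at 2.04 and 1.54 in the control females, -0.63 and 0.89 in the control males, 2.67 and 2.94 in the NEKO females, and 3.49 and 3.95 in the NEKO males. The lowest NEKO value exceeded the highest control value, and the lowest value of all was again that of control replicate 4. The log2 difference was 2.30 (standard error 0.58, adjusted p = 0.14 from limma), or 4.94-fold, with 1.02 within the females and 3.59 within the males. Without control replicate 4 the difference of Slc38a3 was 1.74. Glud1, which releases ammonia from glutamate downstream of that transporter, had a difference of 0.43 with overlapping groups (adjusted p = 0.16 from limma).

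The monocarboxylate transporters MCT2 (Slc16a7) and MCT1 (Slc16a1), which carry lactate and pyruvate, lay lower in the NEKO mice. Slc16a7 was at 2.89 and 2.79 in the control females, 2.36 and 2.56 in the control males, 2.18 and 2.34 in the NEKO females, and 1.10 and 0.93 in the NEKO males. The groups were set apart narrowly by NEKO replicate 3 at 2.34 and control replicate 4 at 2.36, and widely by the NEKO males. The difference was -1.01 (standard error 0.18, adjusted p = 0.077 from limma), and under normexp background correction, where it was also -1.01, the adjusted p was 0.0499 and the gene was called. That was 1 of 20 alternatives, over which the adjusted p ran up to 0.46. Within the females the difference was -0.58 and within the males -1.45, with an adjusted p of 0.15 from the interaction test of limma. Slc16a1 ran from 1.66 to 2.52 in control mice and from 1.38 to 1.53 in NEKO mice, with a difference of -0.52 (standard error 0.16, adjusted p = 0.19 from limma). Without control replicate 4, which held the highest value of Slc16a1, the difference was -0.35. The third gene of this kind was Got2, the mitochondrial aspartate aminotransferase, at -0.30. The sodium-coupled lactate carriers Slc5a8 and Slc5a12 overlapped between the genotypes, with differences of -0.04 and -0.23.

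Of 21 tested regulators 1 had groups that did not overlap (4.76%, against 9.27% of everything tested). Ppargc1a, the coactivator PGC-1α that induces gluconeogenic and mitochondrial genes, was at 4.54 and 4.02 in the control females, 3.87 and 4.17 in the control males, 3.78 and 3.42 in the NEKO females, and 3.58 and 3.44 in the NEKO males. The difference was -0.60 (standard error 0.15, adjusted p = 0.14 from limma), and it was of like size in females (-0.68) and males (-0.51). Hnf4a, which drives many proximal tubule genes, had a difference of 0.01, and Foxo1, which insulin holds out of the nucleus, one of 0.21, both with overlapping groups.

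The genes whose pattern over the 8 mice was most like that of Hk2, by the root mean square difference between values centred on the mean of each gene, were Serpinb5 (0.35), which encodes the serpin maspin, Ly6d (0.45), a surface protein of squamous epithelium and lymphoid cells, and Abcc4 (0.47), an efflux transporter, among 13520 named genes, where the values of Hk2 itself had a root mean square of 1.33 about their mean. Their log2 differences between the genotypes were 2.04, 1.50 and 2.61. For Slc5a2 they were 4931428F04Rik (0.067), Pptc7 (0.075) and Mok (0.076), against 0.25 for Slc5a2 itself, with differences of -0.42, -0.39 and -0.31. None of these 6 genes was called by limma, where their adjusted p ran from 0.11 to 0.18.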

How the data were processed

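Total kidney RNA of 8 mice was hybridised to 1-colour (Cy3) Agilent arrays. The authors deposited Feature Extraction 10.7.3.1 output, in which the processed intensity is background-subtracted and detrended but not normalized between arrays. The log2 matrix that the authors deposited is centred by probe; 99.7% of its differences between arrays lay within 0.01 of those computed here, while its centring removes the level of a probe. The labels and methods give no tool for that matrix.

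Outlier spots (73 to 172 of 43379 per array) were left out, spots of a probe were averaged, and the 75th percentile of each array was subtracted on the log2 scale. Probes well above background on at least 4 arrays, with a value on at least 6 and in each sex of each genotype, were kept, and the brightest of a gene's kept probes stood for it. Transcript accessions of 26690 of 41174 probes matched RefSeq genes of GRCm38.p6, a table used only for names and for the promoter sequences, since the array annotation is on mm9. Limma 3.58.1 under R 4.3.3 fitted genotype and sex (lmFit, eBayes), with Benjamini-Hochberg adjustment over all 19593 features; a second fit held their interaction. Nothing in the sources says which mice shared a litter or a day. The number of arrays limits the precision. The procedure was tested on simulated data.

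The genes, the lists and the alternatives were chosen with earlier results of these data known. Genes named from a list are those that were called and, of those whose groups do not overlap, the 2 with the largest difference in each direction. Genes most like a member are given for Slc5a2 and for the member with the largest difference. Other genes named were chosen after their values were seen. The alternatives were normexp (offset 50, on the median signal and local background), quantile normalization, scaling to detected probes, 2 filters, the mean of probes, a model without sex, a random block for the slide, eBayes with trend and robust, array weights, the methods' t-test, the deposited matrix, and leaving out each mouse.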

Additional observations from a re-analysis of the deposited data

Results flagged for a closer look

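Both genotypes of the genes named by rule made 42 groups of 4 mice. In 3 of them 1 mouse stood apart, judged by its distance to the next value as a share of the whole range, and chance gives this in about 1 group in 20. For Fbp1 in the control mice the ratio was 0.839, with replicate 8 at 7.55 against 7.76 to 7.80 in the others. For Nqo1 in the control mice it was 0.910, and for Ly6d in the control mice 0.890, with replicate 4 low in both. Control replicate 4 also held the lowest value of Hk2, at -5.05, and of Slc38a3, at -0.63. On its array 61.8% of probes were well above background and 172 outlier spots were left out, the extremes of the 8 arrays. Other arrays lay close to these, with 61.9% in NEKO replicate 6 and 162 spots in control replicate 1. The part of the array of control replicate 4 in these values was not tested.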

How the results depend on the processing

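For the 8 measured genes the counts called higher, called lower, with an interaction and unlike between the sexes were 0 and stayed 0 under every alternative run, including each mouse left out in turn (0 to 0 in each count). At an unadjusted p under 0.05 limma gave 1 higher and 1 lower, and the methods' t-test without adjustment the same counts, 1 and 1, and 0 after adjustment. For the 84 pathway genes the counts were 8 and 13 without adjustment, 3 and 6 by the methods' t-test without adjustment, and 0 after it; under normexp background correction 1 gene, Slc16a7, was called lower (-1.01), and each mouse left out gave 0 to 0. Of 310 single values recomputed, 303 kept their direction and their side of the threshold. The values that reversed were all close to 0: Slc2a2 became 0.067 with the mean of its probes and Fbp1 -0.015 under normexp, while with each mouse left out Slc5a1 ran from -0.020 to 0.18, reversed without NEKO replicate 6, and G6pc from -0.15 to 0.19, reversed without NEKO replicate 3, NEKO replicate 6 or control replicate 8. Slc5a2 stayed between -0.50 and -0.37 and Hk2 between 1.30 and 2.35; Hk2 has no value where detection was required on all 8 arrays. No paired analysis was possible because the replicate numbers run over both groups and none is shared. The causes of these shifts were not tested.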

Other observations

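Fbp2, a second fructose bisphosphatase known mainly from muscle, was singled out after its values were seen. Its level was 0.53 and 0.66 in the control females, 0.47 and 0.23 in the NEKO females, -0.21 and -0.15 in the control males, and -0.52 and -0.45 in the NEKO males. Every female lay above every male, at 1.74-fold on average (difference -0.80 for males minus females, standard error 0.08, adjusted p = 0.019 from limma), in a contrast that coincides with the slide. Between the genotypes its difference was -0.28 (standard error 0.08, adjusted p = 0.17 from limma) with overlapping groups.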
